A study of Homo sapiens with 4 samples.

Results

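The acid-sensing ion channel genes ASIC1, ASIC2, ASIC3 and ASIC4 were described in BLaER1 cells with and without knockdown of the long non-coding RNA HAL7. The members were chosen by gene symbol, and all 4 were found among the 43450 Ensembl gene IDs of the deposited expression table. The family was picked because ASIC2 was 1 of the 4 genes that passed the test of knockdown against control over all genes, so the knockdown values chose the members. They are therefore given as a description, with no test for any of the 4 genes.

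BLaER1, derived from a human B cell leukaemia, holds a C/EBPα transgene whose induction turns the cells into macrophage-like cells. Polyadenylated RNA was sequenced from 2 control libraries and 2 HAL7 knockdown libraries, with replicates numbered 0 and 1 in each group. Per the labels' protocols, the knockdown used 3 LNA GapmeRs complementary to HAL7, added to the culture medium without a transfection step. GapmeRs are antisense oligonucleotides whose DNA core directs RNase H to the RNA they bind. The protocol text is the same for both groups. It does not say what control cells received, how long treatment lasted or whether replicates were separate cultures, so each p-value covers only library-to-library spread, possibly technical.

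Acid-sensing ion channels are trimers of subunits that cross the membrane at both ends and open a sodium-conducting pore when the outside of the cell becomes acidic. They belong to the DEG/ENaC family together with the epithelial sodium channels, and are best known from neurons, where they take part in synaptic signalling and in the sensing of pain. ASIC1 subunits form the channels of high proton sensitivity found widely in the brain. ASIC2 subunits join ASIC1 or ASIC3 in mixed channels and change their proton sensitivity and gating. ASIC3 is prominent in sensory neurons, and ASIC4 does not form a proton-gated channel on its own.

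The paralogs are close enough in sequence to be recognised as a family and far enough apart for most reads to be told apart. A stretch of 60 coding bases around the longest run that ASIC1 and ASIC2 share in their longest coding sequences is shown for that reason, read from the GENCODE 29 transcripts. Capitals in the ASIC2 line mark that run of 20 bases, and capitals in the other lines mark bases identical to ASIC2 in the alignment.
ASIC2: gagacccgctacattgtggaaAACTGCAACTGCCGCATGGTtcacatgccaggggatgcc
ASIC1: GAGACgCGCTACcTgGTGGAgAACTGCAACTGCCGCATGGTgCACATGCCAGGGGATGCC
ASIC3: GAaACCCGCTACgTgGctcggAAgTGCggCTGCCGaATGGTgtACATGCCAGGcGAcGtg
ASIC4: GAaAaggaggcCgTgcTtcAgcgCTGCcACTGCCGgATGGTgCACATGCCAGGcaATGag
On GRCh38 the stretch lies in exons 4 and 5 of ASIC2 on the minus strand (chr17:33025975-33028293, with the intron), in exons 6 and 7 of ASIC1 (chr12:50078526-50078931), in exons 4 and 5 of ASIC3 (chr7:151050902-151051046) and in exons 4 and 5 of ASIC4 (chr2:219532426-219532890). In it ASIC1 matched ASIC2 at 55 of 60 bases, ASIC3 at 42 and ASIC4 at 37.

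Over the whole aligned coding sequence, ASIC1 was the closest paralog of ASIC2, with 72.1% of 1518 aligned bases identical, against 67.0% for ASIC4 and 66.7% for ASIC3. The longest exact run that any annotated ASIC2 transcript shared with a paralog was 26 bases with ASIC1, 20 with ASIC4 and 15 with ASIC3. No word of 50 bases was shared between any of the 6 pairs of members. Of the 5581 different 50-base words in ASIC2 transcripts, 116 (2.08%) occurred in another annotated gene, all in the non-coding gene LINC01989. ASIC1, ASIC3 and ASIC4 shared none with any annotated gene. Neither read length nor the treatment of shared reads is stated.

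ASIC2 was the most abundant ASIC gene in control cells and the third in knockdown cells, where it was not clearly separated from ASIC3. Control replicate 0 held 5.09 FPKM and control replicate 1 held 4.99 FPKM, whereas knockdown replicates 0 and 1 held 1.13 and 1.17 FPKM. FPKM count fragments per kilobase of transcript, scaled by library depth, so levels may be compared between genes. Both knockdown libraries lay far below both control libraries, and the libraries within each group were close together. Group means of 5.04 ± 0.0727 and 1.15 ± 0.0261 FPKM (SD, n = 2 each) gave a knockdown-to-control ratio of 0.228. The difference on the log2(FPKM + 1) scale was -1.49, where the within-group SD was 0.017. With fewer cells carrying the transcript and less of it per cell, bulk RNA would give the same values, and the 2 cannot be told apart.

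Against all genes, ASIC2 lay near the lower edge of the distribution. Of 12936 genes tested, 0.0309% had a lower log2 difference, and the median of all was -0.01. The ratio of group means was under 0.5 in 19 of the tested genes (0.147%), ASIC2 included. Of all tested genes, 4 passed limma at an adjusted p of 0.05 (0.0309%). Because this contrast chose the family, nothing further is read from these shares. Among genes at 1 FPKM or more in the same library, 25.9% and 25.5% stood below ASIC2 in control libraries, and 1.8% and 2.2% in knockdown libraries. ASIC2 was therefore a gene of modest level in control libraries and stood just above 1 FPKM in knockdown libraries.

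ASIC1, which encodes the main proton-sensing subunit of brain channels, showed no separation between the groups. Control replicates 0 and 1 held 3.28 and 3.43 FPKM, whereas knockdown replicates 0 and 1 held 2.99 and 3.49 FPKM. The lowest and the highest value were both knockdown libraries, so the control values lay inside the knockdown range. Group means of 3.35 ± 0.106 and 3.24 ± 0.353 FPKM (SD, n = 2 each) gave a ratio of 0.967. On the log2(FPKM + 1) scale the difference was -0.04, smaller than the within-group SD of 0.088, and it turned to 0.05 without knockdown replicate 0.

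ASIC3, the subunit of sensory neurons, stood lower in both knockdown libraries. Control replicates 0 and 1 held 1.99 and 1.88 FPKM, whereas knockdown replicates 0 and 1 held 1.17 and 1.49 FPKM. The groups did not overlap, and the knockdown libraries lay farther apart than the control libraries. Group means of 1.94 ± 0.0733 and 1.33 ± 0.220 FPKM (SD, n = 2 each) gave a ratio of 0.687. The log2(FPKM + 1) difference was -0.34, with a within-group SD of 0.10, and 1.66% of tested genes had a lower one.

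ASIC4, the subunit that is not opened by protons on its own, was the lowest of the 4 in every library. Control replicates 0 and 1 held 0.410 and 0.571 FPKM, whereas knockdown replicates 0 and 1 held 0.363 and 0.330 FPKM. The groups did not overlap, but the control libraries differed from each other by more than control replicate 0 differed from knockdown replicate 0. Group means of 0.490 ± 0.114 and 0.346 ± 0.0233 FPKM (SD, n = 2 each) gave a ratio of 0.706. The log2(FPKM + 1) difference was -0.14, with a within-group SD of 0.080; the 1 added to each value exceeds every ASIC4 level, so this scale understates its ratio. ASIC4 lies under the mean of 1 FPKM asked of other tested genes and was kept in because it is a member. The antisense gene ASIC4-AS1, which overlaps its 5′ end, was listed at 0 to 0.0661 FPKM, and ASIC5, the remaining human member of the family, was listed at 0 in all 4 libraries.

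**Figure D1:**
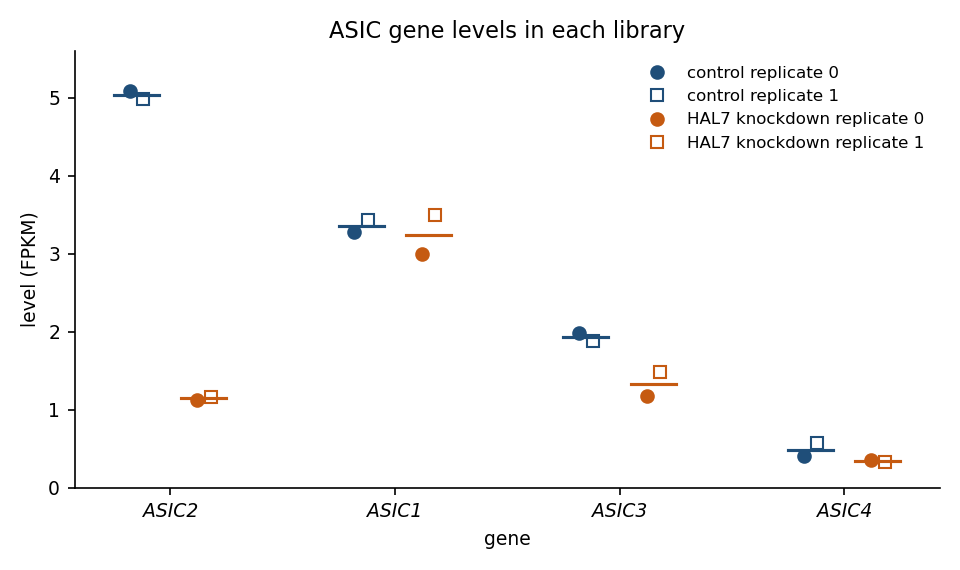
Level in FPKM (linear axis from 0) of each ASIC gene in the 2 control libraries (blue) and the 2 HAL7 knockdown libraries (orange), with circles for replicate 0, squares for replicate 1 and a horizontal line at each group mean. ASIC2 stood at 4.99 to 5.09 FPKM in control and at 1.13 to 1.17 FPKM in knockdown libraries, while the ASIC1 values of the 2 groups overlapped.

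In 3 of the 4 genes both knockdown libraries lay below both control libraries, a pattern that 27.7% of all tested genes had. The order of levels in both control libraries was ASIC2, ASIC1, ASIC3 and ASIC4, with no overlap between neighbours in that order. In both knockdown libraries it was ASIC1, ASIC3, ASIC2 and ASIC4. There the ranges of ASIC3 and ASIC2 all but met, at 1.17 to 1.49 and 1.13 to 1.17 FPKM, so these neighbours did not differ clearly beyond their spread. ASIC1 stayed above both, and ASIC4 below both.

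The summed level of the 4 genes was 10.8 and 10.9 FPKM in control and 5.66 and 6.48 FPKM in knockdown libraries, a ratio of means of 0.561. ASIC2 made up 46.6% ± 0.991 of that sum in control and 19.0% ± 1.37 in knockdown libraries (SD, n = 2 each). The share of ASIC1 was 31.0% ± 0.767 and 53.4% ± 0.742. ASIC1 was thus the largest part of the family's RNA only in the knockdown libraries. The ratio of ASIC2 to ASIC1, taken within each library, was 1.55 and 1.45 in control and 0.377 and 0.334 in knockdown libraries. Library scaling cancels in this within-library ratio. It is built from the ASIC2 values that chose the family, so it is a description only. Without ASIC2, the summed level of the others was 5.68 and 5.88 FPKM in control and 4.53 and 5.31 FPKM in knockdown libraries.

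**Figure D2:**
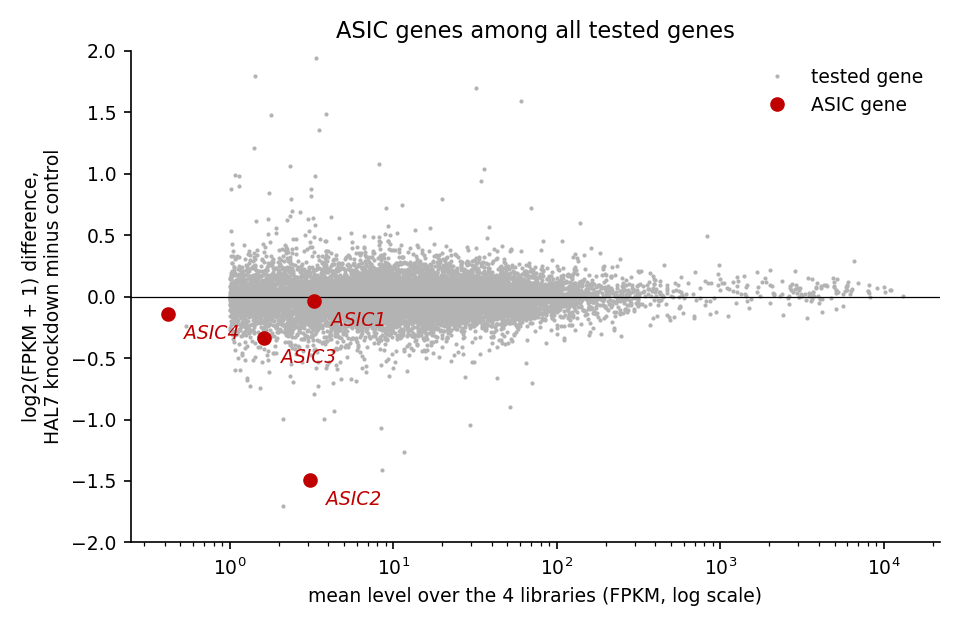
Difference in log2(FPKM + 1), knockdown minus control, against the mean level over the 4 libraries (FPKM, log axis) for the tested genes (grey) and the ASIC genes (red); 11 genes beyond -2 or 2 are not drawn. ASIC2 stands at -1.49, apart from ASIC3 at -0.34, ASIC4 at -0.14 and ASIC1 at -0.04.

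The low levels still rested on many fragments, by an estimate from the values themselves. The labels give no depth. Low FPKM values lie on a grid set by whole fragments. Its fitted spacing corresponds to 60.2 M and 128 M fragments for control replicates 0 and 1. For knockdown replicates 0 and 1 it corresponds to 107 M and 95.7 M. The fit used 180 to 245 low values per library. Of these, 90% lay within 0.15 of a whole step in control replicate 0, and 78.0% to 80.3% in the other libraries. With the longest coding transcript of each gene as its length, ASIC2 values stood for about 1055 and 2190 fragments in control and 417 and 384 in knockdown libraries. For ASIC1 the estimates ran from 804 to 1781 fragments, for ASIC3 from 206 to 413 and for ASIC4 from 68 to 200. Counting error alone is then 2.1% to 5.1% of the ASIC2 values and 7.1% to 12.2% of the ASIC4 values. The transcript lengths the authors used are not known, so these are approximations, and they cover counting error only.

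ASIC2 is a gene of great length, though its longest coding transcript has no more exons than those of its paralogs. On GRCh38 it spans 33013087 to 34174964 on the minus strand of chromosome 17, or 1162 kb, for a longest coding transcript of 3443 nt in 10 exons. Its annotated coding transcripts encode 563 and 512 codons and differ at the 5′ end; the table holds 1 value for the gene, so they were not told apart. The paralogs are compact, at 26.1 kb for ASIC1 on chromosome 12, 4.47 kb for ASIC3 on chromosome 7 and 24.6 kb for ASIC4 on chromosome 2. The other tested protein-coding genes that span more than 500 kb numbered 112, and their median log2(FPKM + 1) difference was -0.06, with 76 of 112 below 0. Over all tested genes the median was -0.01, with 6878 of 12936 below 0. The lowest difference among the 112 long genes was -1.07, that of TRAPPC9, a vesicle tethering gene that was also among the 4 called genes.

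The tested genes beside ASIC2 do not cover the region around its 5′ end. The nearest of them on that side, ZNF830, lay 787 kb away. Of 32 listed genes inside ASIC2 or within 1 Mb of it, 14 were tested, all protein-coding. At an adjusted p of 0.05 limma called 0 of the 14. It called only 0.0309% of all tested genes, so a count of 0 in 14 carries little information. An unadjusted limma p under 0.05 was seen in 2 of the 14, against 16.6% of all tested genes. The ratios of mean FPKM of the 14 ran from 0.833 to 1.16, with a median log2(FPKM + 1) difference of 0.02. TMEM98, a membrane protein gene and the nearest tested on the 3′ side of ASIC2, measured 15.2 and 13.4 FPKM in the controls and 13.7 and 14.3 FPKM after knockdown, within the control range. MYO1D, a myosin gene, had 3.85 and 3.61 FPKM and 3.66 and 3.17 FPKM in the same order, and the groups overlapped. CDK5R1, which encodes an activator of the neuronal kinase CDK5, had the lowest ratio, with 3.16 and 3.38 FPKM in control and 2.83 and 2.61 FPKM in knockdown libraries and a limma adjusted p of 0.285. PSMD11, a proteasome subunit gene, stood at a ratio of 0.991. The other neighbour with an unadjusted p under 0.05 was C17orf75, named after its values were seen, at a ratio of 1.16 and a limma adjusted p of 0.239. On the 5′ side lies a cluster of chemokine genes: CCL7, CCL11, CCL8, CCL13 and CCL1 were listed at 0 in all 4 libraries, and CCL2 did not exceed 0.0542 FPKM. The pseudogene TLK2P1, inside ASIC2, had 0.246 to 0.307 FPKM and was under the filter.

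**Figure D3:**
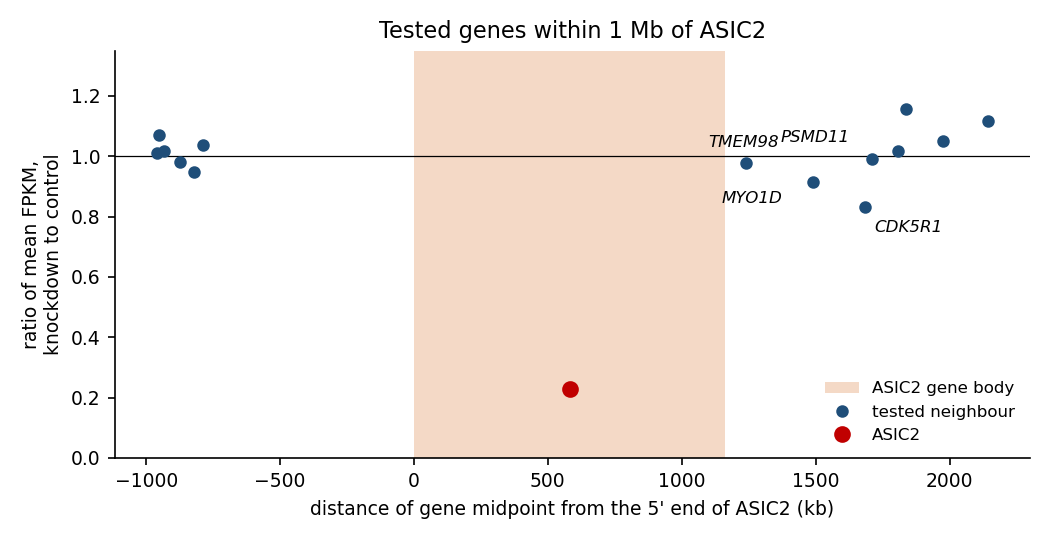
Ratio of mean FPKM, knockdown to control, for ASIC2 (red) and its 14 tested neighbours (blue) by the distance of the gene midpoint from the 5′ end of ASIC2 in kb, with the ASIC2 gene body shaded and ASIC2 drawn from left to right. The neighbours lie between 0.833 and 1.16 and ASIC2 at 0.228.

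The targeted RNA itself stood at 0.726 and 0.613 FPKM in control and 0.475 and 0.347 FPKM in knockdown libraries, a ratio of 0.614 with a limma adjusted p of 0.319, so the change in HAL7 did not pass the test. ASIC2, at a ratio of 0.228 and chosen on this contrast, thus differed between the groups by a larger factor than the target. Every HAL7 level was under 1 FPKM, so the log2(FPKM + 1) scale of the test understates the HAL7 ratio. The number of fragments behind the HAL7 values was not estimated. The sequences of the GapmeRs were not used here; the HAL7 transcript of 726 nt was compared with the ASIC transcripts on the same strand instead. The longest exact run that ASIC2 shared with HAL7 is shown in capitals.
ASIC2 and HAL7: TTCCATTTTCT
It is 11 bases long and lies in the 3′ untranslated part of ASIC2, in exon 10 (chr17:33013147-33013157, GRCh38, minus strand), and at bases 17 to 27 of HAL7. A run at least as long was found in 64.4% of the 12499 tested genes with an annotated transcript, where the median was 11 bases. ASIC1 shared 11 bases, ASIC3 12 and ASIC4 10. Introns, and stretches that match HAL7 with mismatches, were not compared.

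Of the other DEG/ENaC channels, SCNN1D, which encodes the delta subunit of epithelial sodium channels, was the 1 tested gene of 5 listed. It measured 2.91 and 3.53 FPKM in the controls and 3.09 and 3.54 FPKM after knockdown, with overlapping groups, a ratio of 1.03 and a limma adjusted p of 0.900. SCNN1A, the alpha subunit gene, ran from 0.135 to 0.399 FPKM, SCNN1B and ASIC5 were listed at 0 in all libraries, and SCNN1G did not exceed 0.00265 FPKM. The epithelial sodium channel genes were thus under 1 FPKM apart from SCNN1D.

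Genes whose proteins bind or regulate acid-sensing channels were mostly expressed. Of 11 listed partner genes, 2 were under 1 FPKM, STOML3 at no more than 0.00813 FPKM and AKAP5 at 0.0869 to 0.206 FPKM. The other 9 were tested, and limma called 0 at an adjusted p of 0.05 in either direction. Of the 9, 3 had an unadjusted p under 0.05. Over all tested genes 0.0309% were called and 16.6% had such an unadjusted p. The median log2(FPKM + 1) difference of the 9 was -0.06, with 7 of 9 below 0. Over all tested genes the median was -0.01, with 6878 of 12936 below 0. ANXA2 and S100A10 encode the annexin A2 complex, whose S100A10 part binds ASIC1. ANXA2 measured 63.7 and 67.2 FPKM in the controls and 59.9 and 57.6 FPKM after knockdown, with a limma adjusted p of 0.252, and S100A10 stood at a ratio of 0.956. DLG4, which encodes the synaptic scaffold PSD-95, measured 34.0 and 34.7 FPKM in the controls and 29.9 and 29.7 FPKM after knockdown, a ratio of 0.867 and a limma adjusted p of 0.198. PICK1, named outside the rule for named genes because its PDZ domain binds ASIC1 and ASIC2, had 3.07 and 3.33 FPKM and 3.24 and 3.02 FPKM, with overlapping groups and a ratio of 0.979.

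Among other proton sensors, 6 of 12 listed genes were tested, with 0 called by limma and 1 at an unadjusted p under 0.05. Over all tested genes the shares were 0.0309% and 16.6%. The median log2(FPKM + 1) difference of the 6 was -0.10, beside -0.01 for all tested genes. Both knockdown libraries lay below both control libraries in 4 of the 6 and above both in 0, beside 27.7% and 22.5% of all tested genes. KCNK9, an acid-inhibited potassium channel gene, was the most abundant, with 46.5 and 50.6 FPKM in control and 42.5 and 45.9 FPKM in knockdown libraries and a limma adjusted p of 0.366. PACC1, the proton-activated chloride channel gene, measured 22.6 and 24.0 FPKM in the controls and 19.4 and 21.5 FPKM after knockdown, a ratio of 0.877 and a limma adjusted p of 0.274. HVCN1, the voltage-gated proton channel gene known from B cells, stood at a ratio of 1.00. These 3 genes stood above every ASIC gene in FPKM.

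Transporters and enzymes that set cellular pH were called in 0 of 15 tested genes of 27 listed, with 2 at an unadjusted limma p under 0.05, 9 log2(FPKM + 1) differences above 0 and 6 below, and a median of 0.04. SLC4A2, an anion exchanger gene, measured 32.1 and 32.8 FPKM in the controls and 28.5 and 30.9 FPKM after knockdown, with a limma adjusted p of 0.354. SLC16A1, the gene of the lactate and proton carrier MCT1, had 27.9 and 27.8 FPKM and 29.7 and 33.9 FPKM, with an adjusted p of 0.282, and SLC4A7, a sodium bicarbonate transporter gene, stood at 0.978. Voltage-gated sodium channel genes were mostly low, with 11 of 14 under 1 FPKM. Of the 3 tested, limma called 0, with 0 at an unadjusted p under 0.05. SCN4A, the channel gene of skeletal muscle, stood at a ratio of 0.944. Over the 5 lists together, 34 genes were tested, 0 were called and 6 had an unadjusted limma p under 0.05. Of all tested genes, 0.0309% were called and 16.6% had an unadjusted p under 0.05, so 0 calls in 34 carry little information. Both knockdown libraries lay below both control libraries in 14 of the 34 and above both in 6, beside 27.7% and 22.5% of all tested genes.

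**Figure D4:**
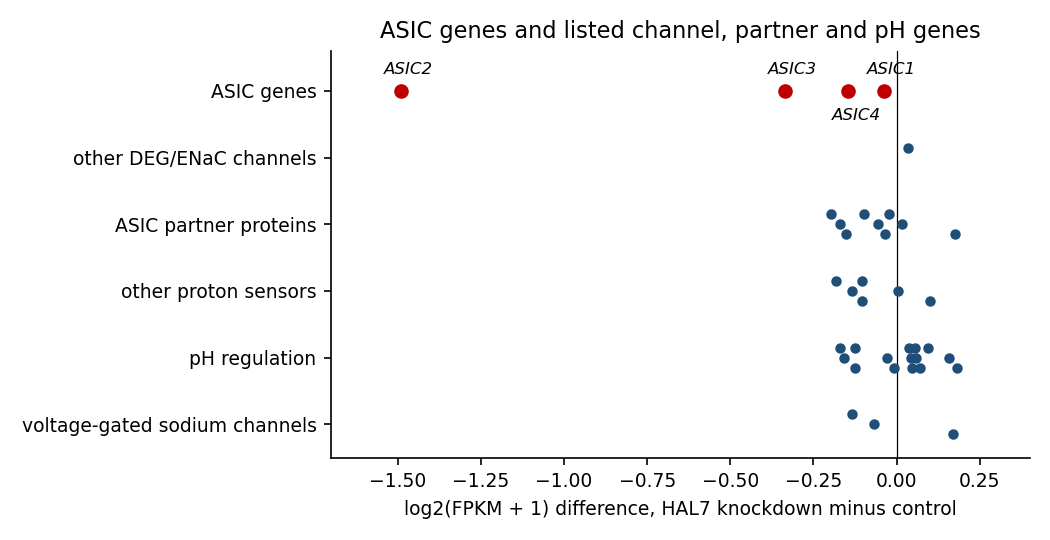
Difference in log2(FPKM + 1), knockdown minus control, for the 4 ASIC genes (red) and for the tested genes of 5 lists of related channels, partner proteins, proton sensors, pH regulators and sodium channels (blue, 1 point a gene, spread vertically for legibility). The listed genes lie between -0.20 and 0.18, and ASIC2 at -1.49.

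Markers of the cells bear on where ASIC RNA could come from. All 9 listed B cell markers were tested, with 0 called by limma and 0 at an unadjusted p under 0.05. Over all tested genes the shares were 0.0309% and 16.6%. The summed level of the 9 was 3660 to 3682 FPKM in control and 3586 to 3655 FPKM in knockdown libraries. Both knockdown libraries lay below both control libraries in 5 of the 9 and above both in 1, beside 27.7% and 22.5% of all tested genes. Their part in the ASIC2 difference was not tested. Of 7 neuron markers matched, SNAP25 and STMN2 were listed at 0 in all libraries and 6 were under 1 FPKM. The exception was SYT1, a synaptic vesicle calcium sensor gene, at 29.7 to 33.0 FPKM; it set the summed level of 31.9 to 33.7 FPKM in control and 30.2 to 32.9 FPKM in knockdown libraries. Of the 6 macrophage and monocyte markers, 4 were under 1 FPKM and FCGR3A was listed at 0, with a summed level of 38.5 to 39.4 and 36.6 to 40.3 FPKM that CSF1R set. The other tested gene of the list, CD68, a lysosomal protein gene, measured 2.73 and 3.21 FPKM in the controls and 2.43 and 1.995 FPKM after knockdown, and the groups did not overlap. Its ratio was 0.744, with a limma adjusted p of 0.244, and it was the 1 gene of the list with an unadjusted p under 0.05; its part in the ASIC2 difference was not tested. Of the 5 T and NK cell markers, CD3D was listed at 0 and 4 were under 1 FPKM. The exception, NKG7, measured 27.5 and 27.0 FPKM in the controls and 21.9 and 17.2 FPKM after knockdown, and the groups did not overlap. Its ratio was 0.716, with an unadjusted limma p of 0.00367 and a limma adjusted p of 0.190. The part of NKG7 in the ASIC2 difference was not tested.

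The 5 genes whose pattern was most like that of ASIC2 were found by the Euclidean distance between gene-centred log2(FPKM + 1) values over the 4 libraries, a measure that favours large differences between these groups. RPL12P4, a ribosomal protein pseudogene, was nearest at a distance of 0.370, with 3.51 and 4.02 FPKM in control and 0.658 and 0.288 FPKM in knockdown libraries; pseudogene values are uncertain where reads also match the parent gene. TRAPPC9 followed at 0.433, with 11.9 and 11.6 FPKM and 4.77 and 5.40 FPKM. LRRC26, which encodes an auxiliary subunit of a potassium channel, was next at 0.631, with 15.6 and 17.5 FPKM and 4.46 and 8.76 FPKM. The others were C4orf48 at 0.637 and an unnamed gene at 0.666. In LRRC26 and C4orf48 the knockdown libraries differed from each other far more than in ASIC2.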

How the data were processed

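The deposited table gives 1 value per library, read as FPKM made by the authors: the unit is not written in it, but per the file headers its ID column is named as Cuffdiff names it, and library sums of 812554 to 853609 are those of fractional values. The submitters' processing notes name TopHat2 2.0.14, Bowtie2 2.2.5, Cuffdiff 2.2.1 and the build hg19, and no options, annotation or scaling. A 0 is called listed at 0, since it can be a failed estimate (EEF1A1 has 0 in every library).

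Symbols were looked up by Ensembl ID (12500 of 12936 tested genes were named). Positions and transcripts are those of GENCODE 29 on GRCh38, not the authors' build, and serve only to name neighbours, lengths and sequences. The 2 groups were compared by limma 3.58.1 (R 4.3.3) using log2(FPKM + 1), which understates changes of low genes, over every gene averaging 1 FPKM or more, the 4 members and HAL7. Tests were two-sided with a mean-variance trend, adjusted by Benjamini-Hochberg and called at 0.05, and the fit was tested on simulated data. An exact permutation of 2 libraries against 2 cannot reach 0.05, so spread was pooled across genes. Coding sequences were aligned with Biopython 1.88.

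The members, gene lists and tests were chosen with earlier results of these data known. The rule for named genes took the members, HAL7, called listed genes or otherwise up to 3 per list by level, the 4 nearest tested neighbours and the 5 most similar genes; cell type markers were a list of their own. Some genes that this rule takes are not reported here. Alternatives were other pseudocounts, filters and scalings, a fit with no trend, a block for the replicate number, and leaving out each library.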

Additional observations from a re-analysis of the deposited data

How the results depend on the processing

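The direction of ASIC2, ASIC3 and ASIC4 was negative under every alternative run. With a pseudocount of 0.1 the log2 differences of ASIC2, ASIC3 and ASIC4 were -2.04, -0.52 and -0.39, and with a pseudocount of 5 they were -0.71, -0.13 and -0.038; a smaller pseudocount shrinks low values less by construction. ASIC4 was at -0.27 with quantile normalization. Leaving out 1 library at a time gave -1.50 to -1.48 for ASIC2, -0.43 to -0.24 for ASIC3, -0.22 to -0.07 for ASIC4 and -0.12 to 0.05 for ASIC1. ASIC4 was at -0.07 without control replicate 1, and ASIC3 at -0.43 and -0.24 without knockdown replicates 1 and 0.

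The count of genes called by limma over all genes was 4, and 2 with a pseudocount of 0.1, 0 with no filter on low values, where 28016 genes were tested, and 11 to 23 with 1 library left out: 11 with control replicate 0 or control replicate 1 removed, 23 without knockdown replicate 0 and 12 without replicate 1 of that group. The lone library was then assumed to vary like the other group. With the replicate number as a block 19 were called. The numbers are not said to pair the libraries: the replicate differences of the 2 groups correlated at 0.12 across 12936 genes, so the block is an alternative only. It changed no other call among the results it was run for, which are the genes of the 5 family and pathway lists, the ASIC2 neighbours and HAL7. Those lists and neighbours had 0 calls, and HAL7 was negative and not called, under all 12 alternatives. With 2 libraries a group, the cause of these shifts was not tested.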
